A study of Mus musculus with 12 samples.

Results

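REDD1 loss in resting plantaris was read from 6 of the 12 arrays of the series: 3 of REDD1 knockout sedentary mice and 3 of wild-type sedentary mice, chosen by their labels alone. All mice were male and 12 weeks old, ate standard chow, went 3 hours without food and were under isoflurane anaesthesia when the plantaris, a fast calf muscle, was taken and frozen. The other 6 arrays hold the same genotypes 1 hour after acute aerobic exercise. They give no value to the resting differences, but they share in the estimate of spread behind the resting calls. The labels do not say how the knockout was made, in which cells the gene was lost, or from which strain or litters the mice came. They name no pooled animals and no batch, so p-values measure the spread between these samples. Of 22180 genes with a transcript cluster of their own, 13747 were bright enough to be tested, and every difference below is knockout minus wild type on the log2 scale.

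REDD1, the product of Ddit4, is a small cytosolic protein that stress induces. It acts through the TSC complex to restrain mTORC1, a growth-promoting kinase complex that turns protein synthesis up and autophagy down. In muscle its gene is switched on by glucocorticoids, fasting, hypoxia and exercise, and its level at rest in fed animals is usually low.

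Array medians lay between 4.52 and 4.60, and the 12 skeletal muscle fibre markers, such as Acta1 and Ckm, were between 11.1 and 13.6 on all 12 arrays, above the 75th percentile of the table (6.10). Knockout sedentary replicate 3 stood apart in markers of other tissue. Its extracellular matrix and fibroblast level was 0.92 above the 12-array mean, while the other knockout sedentary arrays stood at 0.15 and -0.12 and the wild-type sedentary arrays at -0.08, -0.11 and -0.12. Several list medians below moved when it was left out.

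Ddit4 itself had a lower level in knockout than in wild-type resting muscle on every array. It read 6.13, 5.83 and 6.02 on the wild-type and 5.32, 5.44 and 5.08 on the knockout sedentary arrays. The groups did not overlap. The difference of -0.71 (SE 0.22, n = 3 per group, 95% interval -1.18 to -0.24) was 1.64-fold, ranked 191 of 13747 genes by p and did not pass (limma adjusted p = 0.411). In the exercised arrays the difference was -2.37 (limma adjusted p = 0.00011). Its paralogue Ddit4l, which also restrains mTORC1 and is abundant in muscle, stood at 9.17 in wild type and 8.91 in knockout, with overlapping groups (-0.26, SE 0.16, limma adjusted p = 0.755). The sources used here do not say which part of Ddit4 was deleted or where its probes lie, so what kind of transcript gave the remaining signal is not known.

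**Figure D1:**
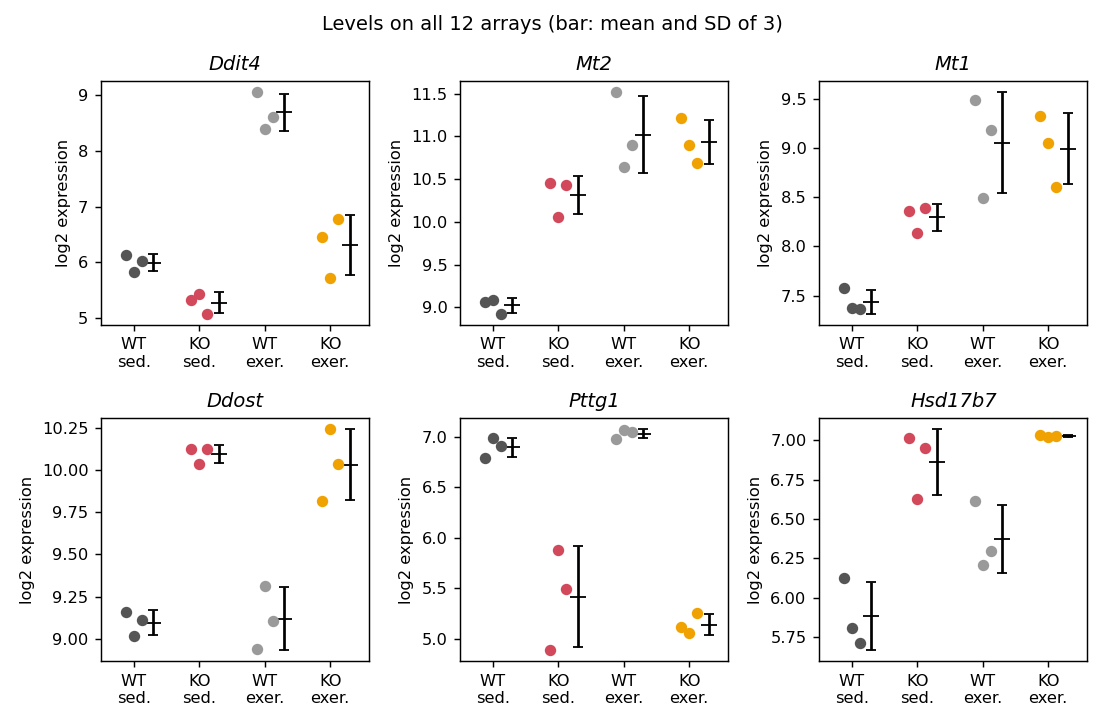
Log2 expression of 6 genes on all 12 arrays, in wild-type (WT) and knockout (KO) sedentary and exercised groups. Points are single arrays and bars give the mean and SD of 3; the Ddit4 difference was -0.71 at rest and -2.37 after exercise, the Mt2 difference was 1.29 at rest and -0.09 after exercise, and Ddost and Pttg1 were apart in both conditions.

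The comparison at rest asked what changes in muscle that has not been exercised when REDD1 is missing. Limma called 19 genes at an adjusted p under 0.05, 6 higher and 13 lower in the knockout, which is 0.138% of those tested (0.0436% higher and 0.0946% lower). Of these, 4 differed by at least 2-fold with arrays below the table median of 4.56 set to it: 2610507I01Rik, Pttg1, Rab6b and Mt2. At an unadjusted p under 0.05 there were 1058 genes, or 7.70% of those tested, 456 higher (3.32%) and 602 lower (4.38%). Over all genes the median difference was -0.01 and 46.0% were positive. None of the 19 had overlapping groups, against 13.1% of all genes whose groups did not overlap; since the same arrays gave the calls, that is a description. Only Mt2 belonged to any of the 36 gene lists, and 18 called genes belonged to none.

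Among the 6 genes that rose, Ddost encodes a subunit of the oligosaccharyltransferase that attaches sugar chains to proteins in the endoplasmic reticulum. It read 9.16, 9.02 and 9.11 in wild-type sedentary and 10.12, 10.03 and 10.13 in knockout sedentary arrays. The difference, 0.998 (SE 0.11, limma adjusted p = 0.00192), was several times the spread in either group. Hsd17b7, an enzyme of cholesterol and steroid synthesis, read 6.13, 5.81 and 5.71 against 7.02, 6.63 and 6.95, a rise of 0.98 (SE 0.14, limma adjusted p = 0.00741). Its lowest knockout array lay above its highest wild-type array. None of the 13 measured members of the cholesterol and fatty acid synthesis list was called, and their median was 0.04 (-0.07 without knockout sedentary replicate 3).

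Ahcy, which breaks down S-adenosylhomocysteine after methyl transfer, read 6.23, 5.99 and 6.09 in wild type and 6.83, 6.73 and 6.82 in knockout (0.69, SE 0.10, limma adjusted p = 0.0118). Rab6b, a small GTPase of Golgi traffic known mainly from brain, read 4.62, 4.49 and 4.19 against 5.86, 5.78 and 6.32. Its wild-type mean lay below the table median of 4.56, so with arrays below that level set to it the rise was at least 2.65-fold (limma adjusted p = 0.00257). Both genes have a second, dim transcript cluster that differed by -0.03 for Ahcy and 0.03 for Rab6b. When all clusters of a gene were averaged, the differences shrank to 0.33 for Ahcy and 0.79 for Rab6b, and neither passed.

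Rnase2a, a secreted ribonuclease of the eosinophil-associated family, also rose. It read 3.56, 3.75 and 1.97 in wild type and 5.27, 5.07 and 5.33 in knockout. The wild-type arrays were dim and scattered, so the rise is given as at least 1.59-fold (limma adjusted p = 0.0405). This family holds close copies that array probes may not separate, and the gene is therefore uncertain.

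Among the 13 genes that fell, Pttg1 encodes securin, the inhibitor of separase that holds sister chromatids together until anaphase. It read 6.79, 6.99 and 6.91 in wild type and 4.89, 5.88 and 5.49 in knockout, 2.79-fold lower (-1.48, SE 0.18, limma adjusted p = 0.00257). The knockout arrays were spread more widely than the wild-type ones, with an SD of 0.50 against 0.10, but stayed below them. Esco1, which acetylates cohesin, the ring that Pttg1's partner enzyme cuts, read 7.39, 7.26 and 7.32 against 6.57, 6.60 and 6.77 (-0.68, SE 0.10, limma adjusted p = 0.00741).

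Of the other genes that fell, Aldh4a1, the mitochondrial enzyme that completes proline breakdown, read 6.66, 7.004 and 6.81 in wild type and 6.07, 5.82 and 5.85 in knockout (-0.91, SE 0.12, limma adjusted p = 0.00656). Glo1, which detoxifies the glycolytic by-product methylglyoxal, read 9.06, 9.12 and 9.07 against 8.42, 8.53 and 8.49 (-0.60, SE 0.11, limma adjusted p = 0.0405). Both were lower on every knockout array than on any wild-type array. Mmut, the mitochondrial methylmalonyl-CoA mutase of branched amino acid and odd-chain fatty acid breakdown, read 8.72, 8.73 and 8.70 against 8.19, 8.31 and 8.16. Its difference was the smallest of the 19, at -0.50 (SE 0.09, limma adjusted p = 0.0439), and its wild-type arrays were also the tightest, with an SD of 0.017. Hddc3, a hydrolase related to the bacterial enzyme that degrades the alarmone ppGpp, read 6.91, 7.34 and 7.21 against 6.39, 6.20 and 6.05 (-0.94, SE 0.14, limma adjusted p = 0.00803).

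The other named falls were smaller than that of Pttg1. Tirap, the adaptor that links Toll-like receptors to MyD88, read 7.76, 7.33 and 7.74 in wild type and 6.69, 6.67 and 6.81 in knockout (-0.89, SE 0.16, limma adjusted p = 0.0472, the highest among the 19). Rbp7, a cellular retinoid-binding protein, read 5.35, 5.83 and 5.996 against 4.74, 5.06 and 4.84 (-0.85, SE 0.15). Plbd1, a phospholipase B-like protein, read 8.31, 8.10 and 8.21 against 7.22, 7.19 and 7.58 (-0.88, SE 0.15). All 3 genes were lower on every knockout array.

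Plpp7, a nuclear-envelope protein of striated muscle, read 8.55, 8.63 and 8.49 in wild type and 7.80, 7.88 and 8.03 in knockout (-0.65, SE 0.10, limma adjusted p = 0.0188). Fam78a differed by -0.87 (SE 0.13, limma adjusted p = 0.0118), but its second transcript cluster by -0.27, and the mean over both clusters, -0.57, did not pass. The remaining 2 of the 13 were gene models without a name, singled out here after their values were seen. The first, 2610507I01Rik, had the smallest p of all genes. It read 6.56, 6.13 and 6.46 in wild type and 4.09, 4.21 and 4.21 in knockout, at least 3.54-fold lower (limma adjusted p = 7.46e-06). The second, 2700038G22Rik, was at least 1.57-fold lower (limma adjusted p = 0.0230).

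**Figure D2:**
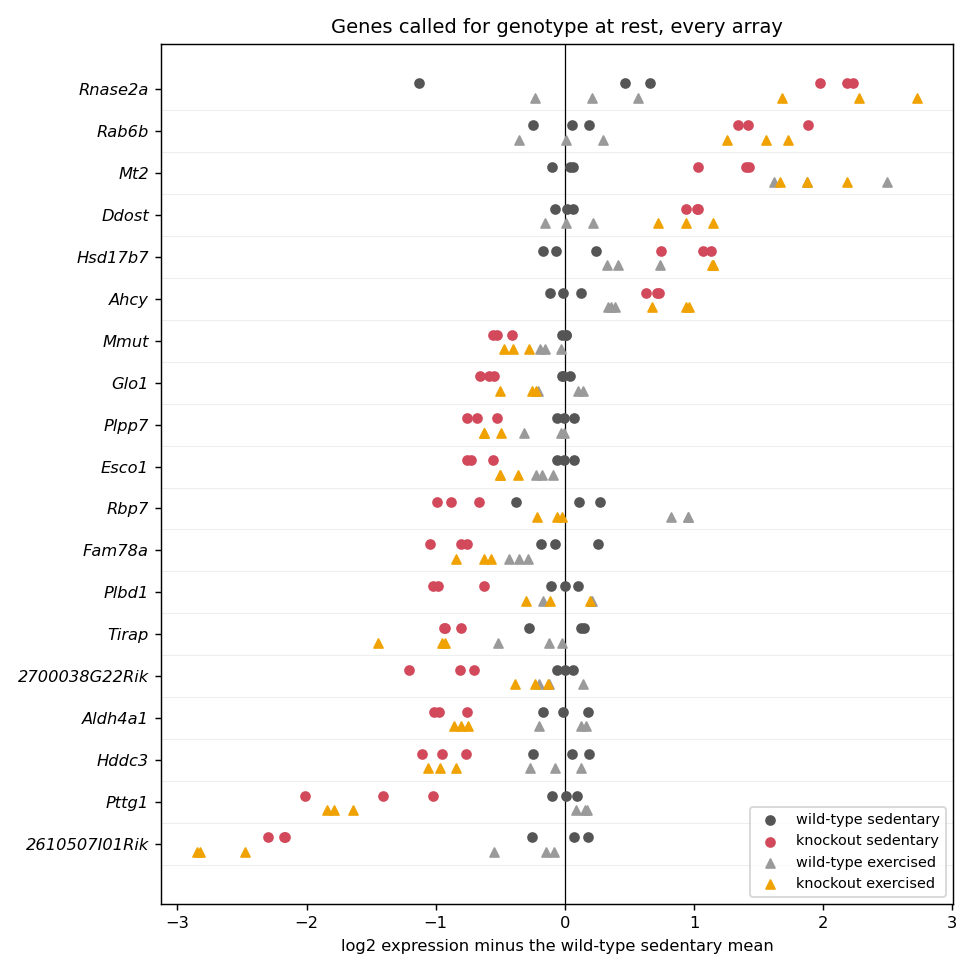
Log2 expression of the 19 genes called at rest on every array, as the difference from the wild-type sedentary mean. Circles are sedentary and triangles exercised arrays; all 19 were apart at rest, where they were called, and 16 were apart in the same direction after exercise.

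The calls differed in how far they rested on single arrays. With any 1 of the 12 arrays left out, 5 genes remained called each time: 2610507I01Rik, Ddost, Pttg1, Rab6b and Aldh4a1. The number called fell to 6 without knockout sedentary replicate 1 and to 12 without wild-type sedentary replicate 1, and was 1 without moderated variances, but all 19 kept their direction in every setting in which they were tested. Mt2, Hsd17b7 and Esco1 each missed the threshold only without knockout sedentary replicate 1 and when variances were not moderated. Least stable were Rbp7, Rnase2a and Glo1, each called in 4 of the 12 fits with 1 array left out, Tirap in 3 and Mmut in 2.

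Genes just outside the threshold are given by value and were not called. The 11 next by p had adjusted p-values between 0.0544 and 0.0994. Cacng7 (0.55), a calcium channel subunit, and Ctxn3 (0.70), a small membrane protein, were higher on all 3 knockout arrays, as was the actin-binding Fam107a (0.94). Lower on all 3 were the sarcoplasmic reticulum dehydrogenase Dhrs7c (-0.67), the amine oxidase Maob (-0.53), the arsenic methyltransferase As3mt (-0.57), the oxysterol hydroxylase Cyp39a1 (-0.74), Rassf9 (-0.74), Lypd6 (-0.72), Arhgef10l (-0.52) and Filip1l (-0.56).

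The exercised arrays give the same genotype contrast in other mice. They also entered the spread behind the resting calls, which favours genes with a small spread there. Non-overlap and calls after exercise are therefore not independent of how the 19 were chosen, and are a description. Of the 19 genes called at rest, 18 had the same sign there, against 54.9% of all genes tested. In 16 the exercised groups did not overlap in that direction; of all genes 11.7% did not overlap after exercise, 6.06% higher and 5.67% lower in the knockout. Limma called 24 genes after exercise (0.175% of those tested), 13 higher (0.0946%) and 11 lower (0.0800%), or 11 higher and 15 lower after quantile normalisation, and 9 of the 19 were among them: 2610507I01Rik, Ddost, Pttg1, Rab6b, Aldh4a1, Hddc3, Rbp7, Rnase2a and Tirap. The difference was smaller after exercise for 16 of the 19. Since the 19 were chosen by their resting difference, that count does not show a weaker effect after exercise. Conversely, all 24 genes called after exercise had the same sign at rest, and in 19 the resting groups did not overlap in that direction, as was so for 5.35% of all genes higher and 7.73% lower. Across all 13747 genes the effects correlated weakly, with r = 0.259 and rho = 0.160; this is a description, since genes are not independent replicates.

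Ddost read 8.94, 9.31 and 9.11 in wild-type exercised and 9.82, 10.24 and 10.04 in knockout exercised arrays, a difference of 0.91 (SE 0.11, limma adjusted p = 0.00237). Pttg1 read 6.98, 7.07 and 7.05 against 5.11, 5.05 and 5.26, or -1.89 (SE 0.18, limma adjusted p = 0.00011). Both levels were close to those at rest in each genotype. Rab6b differed by 1.53 after exercise and 1.55 at rest, Aldh4a1 by -0.83 and -0.91, Tirap by -0.89 and -0.89, and Hddc3 by -0.88 and -0.94. The second cluster of Rab6b does not share its rise, as given above.

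Other resting calls did not pass after exercise. Plbd1 differed by -0.15 there (limma adjusted p = 0.952), with overlapping groups, and Esco1 by -0.29 (limma adjusted p = 0.503). The test of the difference between the genotype effects called 0 genes with limma over all genes (smallest adjusted p = 0.633), with 620 at an unadjusted p under 0.05 (4.51%). Among the 19, 5 had such an unadjusted p: Mt2, Plbd1, Fam78a, Esco1 and 2700038G22Rik. No gene can therefore be called particular to rest.

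Of the 24 genes called after exercise, 15 were not called at rest. Iigp1, an interferon-induced GTPase, read 6.59, 7.01 and 7.07 in wild-type sedentary and 5.70, 5.51 and 4.93 in knockout sedentary arrays. The groups did not overlap and the difference was -1.51 (SE 0.35, limma adjusted p = 0.162), against -2.40 after exercise (limma adjusted p = 0.00844). The resting difference passed with only the 6 sedentary arrays fitted and without wild-type exercised replicate 1. The other 17 measured interferon-stimulated genes had no resting p under 0.05. Ctxn3 and Cacng7, just outside the threshold at rest, differed by 0.96 and 0.76 after exercise. The acute-phase gene Orm1 was called after exercise (-1.08) with a resting difference of -0.06.

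**Figure D3:**
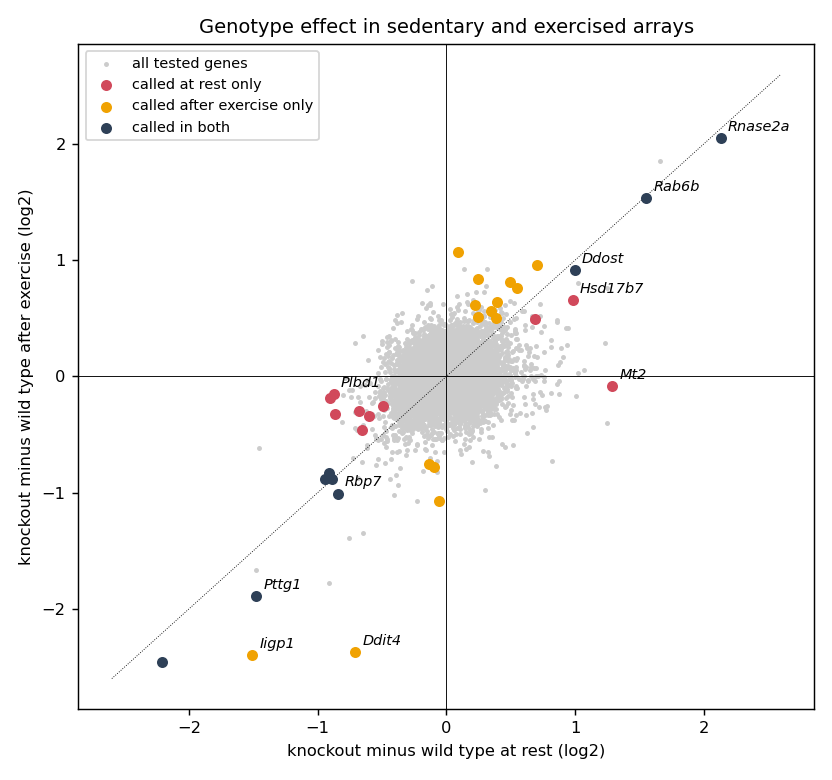
Knockout minus wild type on the log2 scale for 13747 genes, at rest on the x axis and after exercise on the y axis, with the line of equal effect dotted. Genes called in both conditions (9) lie along that line; Mt2 (1.29 and -0.09) and Ddit4 (-0.71 and -2.37) lie far from it.

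Metallothioneins are small cysteine-rich proteins that bind zinc and copper, and their genes are switched on by metals through the factor MTF1 and by glucocorticoids. Mt2 read 9.06, 9.09 and 8.93 in wild-type sedentary and 10.45, 10.06 and 10.43 in knockout sedentary arrays, 2.44-fold higher (1.29, SE 0.18, limma adjusted p = 0.00741). Mt1 read 7.57, 7.38 and 7.36 against 8.36, 8.13 and 8.39. In both genes every knockout array lay above every wild-type array, but the Mt1 difference of 0.86 (SE 0.21) did not pass (limma adjusted p = 0.221); it passed with only the 6 sedentary arrays fitted (limma adjusted p = 0.0243). After exercise Mt2 read 11.52, 10.64 and 10.90 in wild type and 11.21, 10.90 and 10.69 in knockout. These groups overlapped (-0.09, SE 0.18), and both lay above the resting knockout level. The genotype effect on Mt2 was 1.37 lower after exercise than at rest, which did not pass (SE 0.26, limma adjusted p = 0.633). Of the 9 listed metallothionein and zinc genes 6 were measured and Mt2 alone was called. Mtf1 differed by -0.02, Mt3, the brain-type metallothionein, by 0.28, and the zinc importers Slc39a14 by 0.18 and Slc39a10 by -0.35.

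The promoters of this pair are shown because both genes were higher at rest on all 3 knockout arrays; they were chosen after the values were seen. They are the 250 bases before the start of transcription in RefSeq's table for GRCm38.p6, Mt2 at chr8:94172368-94172617 and Mt1 at chr8:94178839-94179088, both on the plus strand. Capitals mark matches of the metal response element core, TGCNCNC, read on either strand.
Mt2: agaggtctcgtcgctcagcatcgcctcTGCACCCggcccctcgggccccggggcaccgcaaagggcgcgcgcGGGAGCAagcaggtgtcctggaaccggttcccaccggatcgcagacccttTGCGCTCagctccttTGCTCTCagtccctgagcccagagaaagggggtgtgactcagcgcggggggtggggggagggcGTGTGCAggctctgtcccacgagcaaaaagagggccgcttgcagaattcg
Mt1: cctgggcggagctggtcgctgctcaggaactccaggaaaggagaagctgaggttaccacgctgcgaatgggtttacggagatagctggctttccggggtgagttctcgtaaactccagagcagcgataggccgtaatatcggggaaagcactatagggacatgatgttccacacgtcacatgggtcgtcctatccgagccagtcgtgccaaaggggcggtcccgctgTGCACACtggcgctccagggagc

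The Mt2 window holds 5 matches, 3 on the plus and 2 on the minus strand, and the Mt1 window holds 1. Of 32851 promoter windows of the same length, 44.4% hold at least 1 match and 0.344% hold 5 or more. The cyclic AMP element core TGACG, which shares no position with the capitals, matched once in Mt1 and not in Mt2, and 17.8% of windows hold it. The letters of the E-box (CACGTG, in 6.02% of windows), the TATA box (TATAAA, in 12.4%) and the full glucocorticoid response element were found in neither window. Only 0.00913% of windows hold the full glucocorticoid response element in the exact letters searched. Its absence from both windows is therefore no result about either gene. Each window ends at the annotated start, and bases beyond it were not searched. The counts therefore hold for these windows only, and do not show that either gene lacks an element or that their promoters differ. These matches describe the letters only, and binding was not measured here.

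Glucocorticoid receptor targets, genes that the stress hormone receptor switches on, include Mt2 and Mt1 and were mostly higher in the knockout at rest. All 22 members were measured, 21 were higher in the knockout and their median was 0.26, against -0.01 over all genes. Only Mt2 was called. At an unadjusted p under 0.05 there were 9 higher and 0 lower, where 3.32% of all genes were higher and 4.38% lower. On single arrays the list's mean level, relative to the 12-array mean, was -0.44, -0.63 and -0.39 in wild-type sedentary and 0.05, -0.08 and -0.25 in knockout sedentary. The arrays of the genotypes did not overlap, as in 7 of the 36 lists. The others were metallothionein and zinc handling, unfolded protein and integrated stress response, p53 targets, immediate-early, neutrophil, and, lower in the knockout, glycolysis and glycogen. The median of the glucocorticoid receptor targets was 0.42, with 12 members at such a p, without knockout sedentary replicate 3. It was 0.18, with 8, without knockout sedentary replicate 1. Without wild-type sedentary replicate 2 it was 0.19, with 8.

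Cdkn1a, the cell-cycle inhibitor p21, which is also a p53 target, read 8.25, 7.37 and 7.67 in wild type and 8.80, 8.66 and 8.40 in knockout (0.86, SE 0.20, limma adjusted p = 0.185). Per1, a clock repressor, read 7.29, 7.81 and 8.33 against 8.61, 8.46 and 8.42 (0.69, SE 0.18, limma adjusted p = 0.252). Neither gene overlapped between genotypes, and each passed with 1 array left out: Cdkn1a without wild-type sedentary replicate 1 and Per1 without wild-type sedentary replicate 3. Arrdc2, an arrestin-family gene, differed by 0.95, Glul, glutamine synthetase, by 0.47, the transcription factor genes Zbtb16 by 0.53, Cebpd by 0.55 and Klf15 by 0.37; their adjusted p-values ran from 0.219 to 0.624. Arrdc2 passed without knockout sedentary replicate 3 and Glul without wild-type sedentary replicate 3. Among other members, Fkbp5 differed by 0.27, Sgk1 by 0.26, Tsc22d3 by 0.12 and Klf9 by 0.07, where the list's resting median was 0.26. After exercise the list's median was 0.02, with 14 of 22 positive and 0 called; 49.3% of all genes were positive there.

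**Figure D4:**
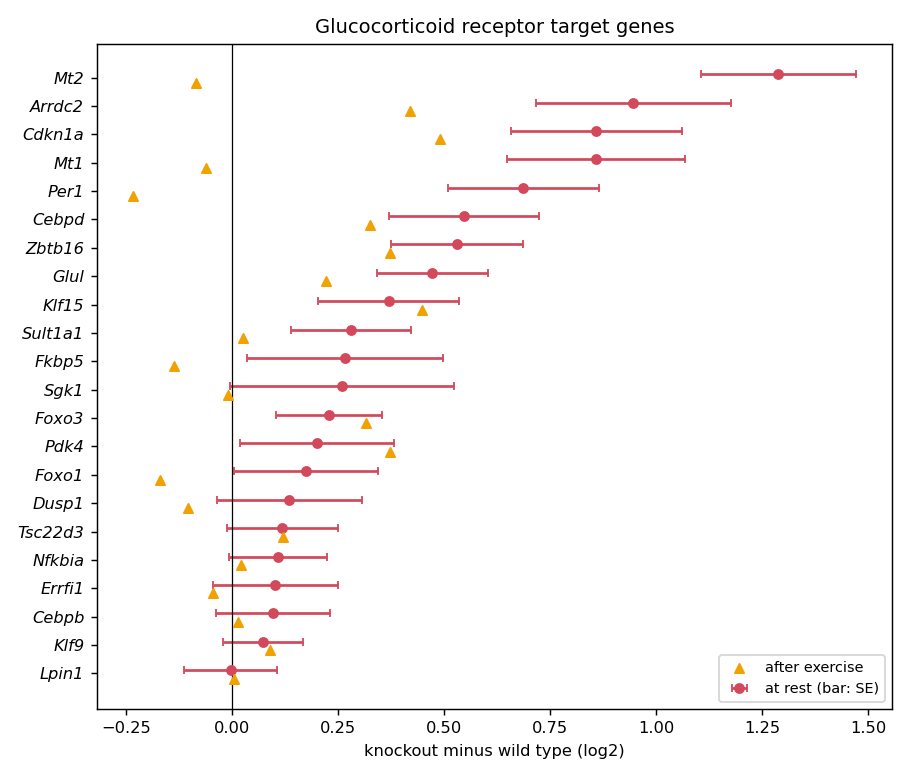
Knockout minus wild type on the log2 scale for the 22 glucocorticoid receptor targets, at rest (circles, bars give limma's SE) and after exercise (triangles). At rest 21 of 22 were positive and Mt2 was called; after exercise 14 were positive.

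The mTORC1 list covers the complex, its amino acid and TSC inputs and its direct targets. Of 26 members 25 were measured and 0 were called; 12 were higher and the median was -0.001. Mtor, the kinase, read 7.83, 7.75 and 7.83 in wild type and 7.62, 7.57 and 7.65 in knockout. These groups did not overlap, but the difference of -0.19 (SE 0.10, 95% interval -0.41 to 0.03) did not pass (limma adjusted p = 0.713). Sesn2, a leucine sensor that inhibits mTORC1 and a stress-response gene, was the 1 member with an unadjusted p under 0.05. It read 3.78, 4.43 and 4.69 against 5.02, 4.95 and 5.03, with a wild-type mean below the table median (limma adjusted p = 0.412). Its relative Sesn1 differed by 0.25 at rest, and by 0.84 after exercise, where it was called (limma adjusted p = 0.0495). Eif4ebp1, the translation repressor that mTORC1 phosphorylates, differed by 0.15 and Tsc2 by 0.11. Arrays measure transcripts, so the activity of the complex was not measured.

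The list for the unfolded protein and integrated stress responses had 17 measured members. Of these, 14 were higher, where 46.0% of all genes were, and 0 were called. The median was 0.09, and 0.04 without knockout sedentary replicate 3. At an unadjusted p under 0.05 the list had 4 members, all higher, where 3.32% of all genes were higher. These were Sesn2, Ppp1r15a (0.39), which restarts translation after stress, Xbp1 (0.23) and Slc3a2 (0.25). The chaperone Hspa5, of the same compartment as Ddost, differed by -0.13. The p53 targets had a median of 0.23 over 13 measured members, with Cdkn1a and Sesn2 at such a p. Both of these genes also stand on other lists.

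Genes of ubiquitin ligation and autophagy, which carry out protein breakdown in muscle, showed 0 calls among 18 measured members and a median of 0.02. Trim63, the ligase MuRF1, read 9.59, 9.26 and 9.09 in wild type and 9.86, 10.10 and 9.47 in knockout, with overlap (0.50, SE 0.23, limma adjusted p = 0.629). Fbxo32, the ligase atrogin-1, differed by 0.29 (limma adjusted p = 0.747), Gabarapl1 by 0.28 and Mul1, a mitochondrial ligase, by -0.29. Cytosolic ribosomal proteins, whose synthesis mTORC1 controls at translation, had a median of 0.04, with 10 of 18 higher and 0 called.

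Fuel genes leaned lower at rest without any call. Of 20 measured genes of fatty acid uptake and oxidation, 5 were higher and 15 lower, where 46.0% of all genes were higher. Their median was -0.16 (-0.10 without wild-type sedentary replicate 1). At an unadjusted p under 0.05 there were 6 lower: Plin5 (-0.51), a lipid-droplet protein of oxidative tissue, Plin2 (-0.25), and the oxidation enzymes Cpt2 (-0.32), Hadh (-0.30), Acadl (-0.28) and Acadvl (-0.23). Another 3 were higher at such a p, where 3.32% of all genes were higher and 4.38% lower. Angptl4, an inhibitor of lipoprotein lipase, read 6.34, 6.65 and 5.54 in wild type and 7.05, 6.95 and 7.17 in knockout (0.88, SE 0.21, limma adjusted p = 0.192); the others were the uncoupling protein Ucp3 (0.51) and the fatty acid binding protein Fabp3 (0.29). The number at such a p went from 3 to 12 when single arrays were left out, with 3 without wild-type sedentary replicate 1, 4 without knockout sedentary replicate 2, and 12 without wild-type exercised replicate 1, which enters through the shared spread.

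Of 21 measured subunits of oxidative phosphorylation 18 were lower, with a median of -0.11, where 46.0% of all genes were higher. Uqcrc2 of complex III read 11.29, 11.25 and 11.25 in wild type and 11.09, 11.06 and 10.89 in knockout (-0.25, SE 0.08, limma adjusted p = 0.422). With Ndufs1 (-0.25), Ndufa9 (-0.21) and Sdha (-0.19) it made up the 4 members at an unadjusted p under 0.05. Over all genes 4.38% were lower at such a p. The genotypes did not overlap in 5 members, all lower and these 4 among them (23.8%, against 13.1% of all genes). By array, the list stood at 0.04, 0.10 and -0.04 in wild-type and at 0.04, -0.11 and -0.20 in knockout muscle, so knockout sedentary replicate 1 lay within the wild-type range. Without that array 21 of 21 were lower and 9 had such a p; without knockout sedentary replicate 3, or without wild-type sedentary replicate 2, there were 2. Among 20 mitochondrial ribosomal proteins 18 were lower and 0 called, and the median was -0.07. It was -0.03, with 10 of 20 lower, without knockout sedentary replicate 3, and -0.18 without knockout sedentary replicate 1. After exercise the medians were -0.02 for fatty acid genes, -0.05 for oxidative phosphorylation and -0.005 for mitochondrial ribosomes.

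None of the 19 measured glycolysis and glycogen genes was called (median -0.05). Phkb, a subunit of phosphorylase kinase, differed by -0.30 (limma adjusted p = 0.460). In insulin signalling, Irs1, the receptor's main docking protein, read 7.59, 7.48 and 7.93 in wild type and 7.06, 7.10 and 7.23 in knockout. These groups did not overlap, and the difference of -0.53 (SE 0.19) did not pass (limma adjusted p = 0.491). Of the hypoxia-inducible genes, Vegfa, the main angiogenic growth factor, read 10.12, 10.10 and 10.31 against 9.45, 9.78 and 9.82 (-0.49, SE 0.14, limma adjusted p = 0.341), and Egln1, an oxygen-sensing hydroxylase, differed by -0.21. The list's median was -0.01. Among clock genes only Per1 and the repressor Bhlhe40 (-0.44) had an unadjusted p under 0.05, and the list's median was 0.004.

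Contractile genes of fast fibres, the bulk of the plantaris, lay within -0.09 and 0.04 of wild type in all 13 members, with 0 at an unadjusted p under 0.05. Myh4, the fast IIb myosin, stood at 13.4 in both genotypes (-0.05, SE 0.06, 95% interval -0.18 to 0.09). The slow-fibre list had a median of 0.01, and its level was 0.46 on knockout sedentary replicate 3 against -0.19 and -0.44 on the other knockout arrays; without that array the median was -0.16. Actc1, the cardiac actin gene that is also expressed in developing muscle, read 8.14, 9.96 and 9.11 in wild type and 7.78, 8.35 and 8.34 in knockout. These groups overlapped (-0.91, SE 0.34, limma adjusted p = 0.522). Satellite cell and myogenic genes had a median of -0.01, with Myf5, an early myogenic factor, at -0.41, and neuromuscular junction genes one of 0.10 (0.004 without knockout sedentary replicate 3), with the fetal receptor subunit Chrng at 0.54; 0 members of either list were called.

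Stress-related lists held no called gene. Of 27 immediate-early genes 20 were higher, where 46.0% of all genes were, with a median of 0.14 and 0 at an unadjusted p under 0.05. Without knockout sedentary replicate 3 the median was 0.05. Heat shock and chaperone genes had a median of -0.12 (-0.07 without that array), where the small heat shock protein Hspb7 differed by 0.48 and the mitochondrial co-chaperonin Hspe1 by -0.26. Oxidative stress and glutathione genes had a median of -0.06, with the extracellular Sod3 at 0.45 and Gclm, of glutathione synthesis, at -0.27. The median was 0.02 for cytokines and myokines and 0.001 for housekeeping controls.

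Markers of other cell types were measured in bulk muscle, where more cells of a type and more RNA per cell cannot be told apart. The 15 extracellular matrix and fibroblast markers were all higher at rest, with a median of 0.33, 0 called and 7 at an unadjusted p under 0.05. Over all genes 46.0% were higher, and 3.32% were higher at such a p. Postn, a matrix protein of repair, read 7.25, 7.04 and 6.95 in wild type and 7.84, 6.74 and 10.40 in knockout (1.25, SE 0.58, limma adjusted p = 0.636). Fn1 read 9.36, 9.41 and 9.34 against 9.77, 9.60 and 11.09, and Col3a1 8.48, 8.79 and 8.998 against 9.24, 8.82 and 10.65. In all 3 genes knockout sedentary replicate 3 was the highest. Without it the list's median was 0.13, with 12 of 15 higher and 2 at such a p. That number was 13 without knockout sedentary replicate 2, and 4 without wild-type sedentary replicate 2 or 3. After exercise the median was -0.25.

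The same array moved other marker lists. The 8 measured Schwann cell and nerve markers had a median of 0.33, and of 0.07 without it. The 15 macrophage and leukocyte markers had a median of 0.23, with Adgre1 (0.40) and C1qa (0.34) at an unadjusted p under 0.05. Over all genes 3.32% were higher at such a p. Without knockout sedentary replicate 3 the median was 0.09, with 0 members at such a p. There were also 0 without wild-type sedentary replicate 2, but 5 without wild-type sedentary replicate 3 and 8 without knockout sedentary replicate 2. Of 9 measured adipocyte markers 7 were higher, with a median of 0.22 (0.11 without it and -0.02 without wild-type sedentary replicate 3); their levels were -0.38, 0.13 and -0.27 on wild-type and -0.23, 0.37 and 0.17 on knockout arrays. Medians were 0.03 for endothelium, 0.07 for tendon and 0.14 for smooth muscle (0.05 without knockout sedentary replicate 3), and 0 of these markers were called. Of 10 neutrophil markers 3 were measured, 2 higher and 1 lower (-0.18), with a median of 0.34. The 2 higher, Csf3r (0.35) and Itgb2 (0.34), which other leukocytes also express, had an unadjusted p under 0.05, where 3.32% of all genes were higher at such a p. The list's level was 0.18, 0.04 and 0.09 on knockout and -0.02, -0.10 and -0.07 on wild-type arrays. These did not overlap, as in 7 of the 36 lists. The defining S100a8, S100a9 and Ly6g were too dim to test. Without knockout sedentary replicate 3, limma called 13 genes at rest, 12 of them among the 19. The part that other cell types had in the 19 calls was not tested.

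**Figure D5:**
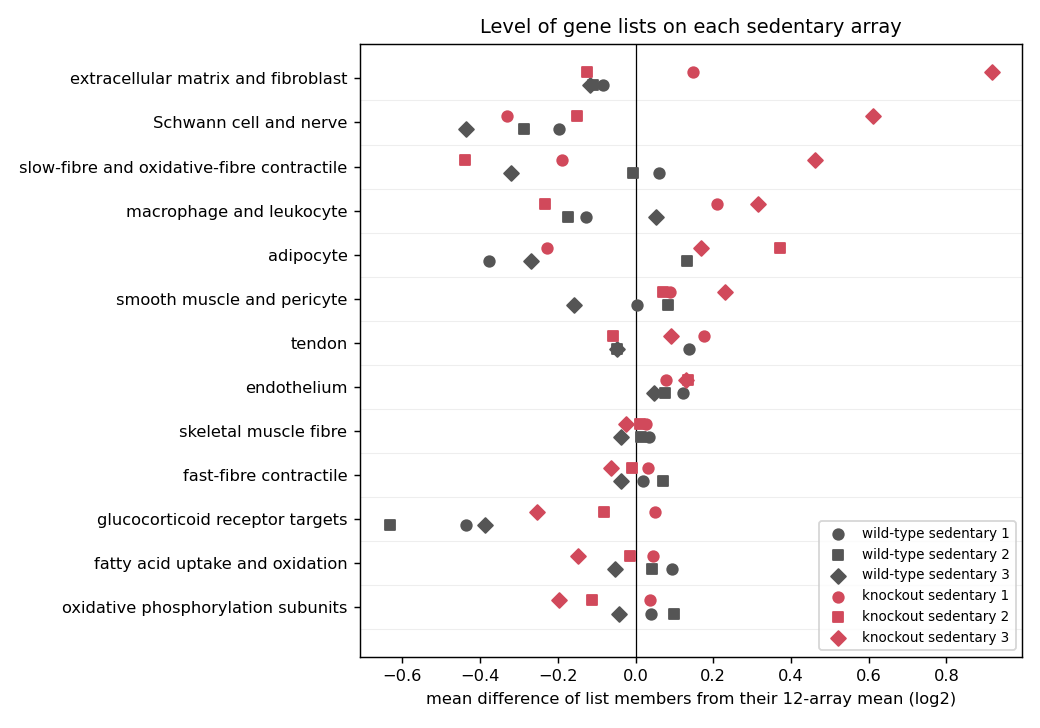
Mean log2 difference of list members from their 12-array mean on each of the 6 sedentary arrays. Knockout sedentary replicate 3 (red diamonds) was highest for matrix (0.92), Schwann cell (0.61) and slow-fibre (0.46) genes. The genotypes were apart for the glucocorticoid receptor targets, the only list shown of the 7 of 36 that were apart.

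Genes beside Ddit4 on its chromosome showed no resting difference past the threshold. Of the 40 tested genes nearest to it, 20 on each side, limma called 0 and 0 had an unadjusted p under 0.05, where 7.70% of all genes did; 18 were positive and the median was -0.02. After exercise 1 of the 40 had such a p (6.58% of all genes) and 0 were called. None of the 19 genes called at rest lay on the chromosome of Ddit4, which holds 705 of the 13729 tested genes placed in the gene order. With a share that small, 0 of 19 is no result about that chromosome.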

How the data were processed

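Plantaris total RNA (300 ng per the labels' protocols) was labelled with a whole-transcript kit and hybridised to 12 Affymetrix arrays, 3 per group. The authors deposited log2 expression values for 41345 transcript clusters; the log scale was read from their range of 0.357 to 13.9. Partek is the only program named per the submitters' processing notes, without a version. The background correction, normalisation and summarisation are not given in the sources used here. The number of arrays limits the precision.

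Symbols came from the platform annotation, checked against RefSeq's GRCm38.p6 gene table (23328 of 23521 clusters with 1 symbol matched). The brightest cluster stood for a gene, and genes above the table median (4.56) on at least 3 arrays were tested. R 4.3.3 and limma 3.58.1 fitted all 12 arrays with 1 mean per group (8 residual degrees of freedom, eBayes with trend). P-values are two-sided, adjusted by Benjamini-Hochberg over 13747 genes, with a threshold of 0.05. A difference with a group mean below the table median is given as at least its value with arrays floored at that median; this rule was made once the values were known.

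The comparison, the 36 gene lists and the rule for named genes were chosen with earlier results of these data known. Named were the called genes, the next by p up to 30 in all, Ddit4 and Ddit4l, up to 6 members per list by size of the moderated t, and the 10 smallest p after exercise and for the difference; other list members and unnamed models appear where a description needed them. Lists carry no test. Replicate numbers follow sample order and pair nothing. Alternatives changed the arrays fitted, the filter, clusters, normalisation, moderation, weights and single arrays. The fit was tested on simulated data first.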

Additional observations from a re-analysis of the deposited data

Results flagged for a closer look

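Per1, the clock repressor and glucocorticoid target, lay in opposite directions at rest and after exercise, without overlap between genotypes in either condition. Its genotype effect was 0.69 at rest and -0.23 after exercise, a difference of -0.92 that had an unadjusted p of 0.0024 and did not pass over all genes (limma adjusted p = 0.997).

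Col5a2, a collagen of fibrils, did the same, with 0.52 at rest, -0.24 after exercise and a difference of -0.76 (limma adjusted p = 0.997). Its highest resting level, 7.80, was on knockout sedentary replicate 3, whose matrix markers were high, against 6.95 and 6.92 on the other knockout arrays. The part of that array in the difference was not tested. For Per1 and Col5a2 alike, the pattern was looked for among named genes only, many of them chosen by their resting difference. Of all genes, 13.1% did not overlap at rest and 11.7% after exercise, in either direction. The share apart in opposite directions was not counted, so both genes are a description only.

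Clusters that the platform annotation pairs with no gene symbol were left out of the comparisons. In a fit of all clusters, 12 of the 7072 tested were called at rest, 7 higher and 5 lower in the knockout. Over clusters of every kind that fit called 26 of 22506, 12 higher and 14 lower. The clusters without a symbol were flagged as signal outside the genes compared.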

How the results depend on the processing

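The number of genes called at rest, 19, stayed between 13 and 25 with only the 6 sedentary arrays, other filters, normalisations, priors or array weights, was 14 with all clusters adjusted together, and was 1 without moderation. With single arrays left out it ranged from 6 to 27. After exercise, 24 became 13 with only the 6 exercised arrays, 1 without moderation and 89 with array weights, and ranged from 5 to 40 with single arrays left out. The difference of effects had 0 calls in all settings. Ddit4 at rest ranged from -0.79 to -0.61 and was never called. No called value reversed, but the medians of 17 of 35 lists, none with a test, changed sign in at least 1 setting. All 19 genes kept their direction, 15 of them in 22 settings and 4 in the 21 in which they were tested; the cause of each lost call was not tested. No paired analysis was possible because the labels give no replicate numbers shared between groups. Signal near or below the table median leaves only a bound for 4 of the called genes.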

Other observations

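Some transcript clusters that carry no gene symbol also differed at rest, and 4 of the 12 called are given here, picked after their values were seen. Clusters 17549080, 17549054 and 17549096 averaged 3.08, 3.13 and 3.31 in wild-type sedentary arrays, below the table median, and 6.51, 6.49 and 6.27 in knockout sedentary arrays. With wild-type arrays set to the table median, the rises were at least 3.87-fold, 3.83-fold and 3.27-fold. In knockout exercised arrays they averaged 8.23, 8.20 and 7.98, against 3.18, 3.20 and 3.34 in wild-type exercised arrays. These rises moved nearly alike from array to array, with 8.36, 8.33 and 8.04 on knockout exercised replicate 1, and may not be separate signals. Cluster 17420443 read 9.62, 9.95 and 9.73 in wild-type and 7.95, 7.72 and 7.83 in knockout sedentary arrays, 3.83-fold lower, and differed by -1.60 after exercise. Of the other called clusters, 17264320, 17205775, 17208975 and 17249924 differed after exercise by -1.59, 0.996, -1.75 and -1.02. Clusters 17315390, 17311802, 17209151 and 17207321 differed there by -0.22, -0.04, -0.20 and 0.02. What these clusters represent is not named in the files.

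Some of the 30 genes with the smallest p at rest lay close together in the reference gene order, a pattern looked for after their values were seen. Fam78a and Plpp7, both lower, were direct neighbours among tested genes. Aldh4a1 and Arhgef10l, both lower, were 4 tested genes apart, Mmut and Cyp39a1, both lower, 8, and Ddost and Aldh4a1, which moved in opposite directions, 22. No test was made of this.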
